A study of Mus musculus with 2 samples.

Results

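The genes described here are the ligands and receptors that steer growing axons and migrating neurons, taken by name from 2 single-cell RNA-seq libraries of mouse medulloblastoma, a tumour of the cerebellum. They are the genes whose symbol starts with Sema, Plxn, Epha, Ephb, Efna, Efnb, Robo or Unc5, together with Nrp1, Nrp2, Slit1, Slit2, Slit3, Dcc, Ntn1 and Ntn4. The names matched 66 of the 16546 genes that both libraries listed. Of these, 46 had at least 50 UMIs over both libraries, a UMI (unique molecular identifier) standing for 1 captured RNA molecule. Unc50, which encodes a protein of the Golgi membrane, matched by its letters alone, so the counts below are over 45 guidance genes. The 20 genes under 50 UMIs, which are not described further, were Epha2, Epha4, Epha6, Epha8, Epha10, Ephb3, Efna3, Plxna4, Plxnb3, Robo3, Sema3b, Sema3c, Sema3d, Sema3f, Sema3g, Sema4a, Sema5b, Slit3, Unc5a and Unc5d. The 45 guidance genes had a median of 301 UMIs over both libraries, against 570 for the 12227 genes with at least 50 UMIs.

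Tumour cells were captured with Drop-seq, in which single cells are lysed in droplets beside barcoded beads and the 3′ ends of their RNA are sequenced. Both libraries came from mice of the genotype hGFAPcre;Ptchc/c, that is, a Cre recombinase driven by the human GFAP promoter, active in neural progenitors, and conditional alleles of Ptch, the Hedgehog receptor that holds the pathway off. 1 library was made at postnatal day 12 (P12) and 1 at postnatal days 24 to 30 (P24-30); the number of animals behind each was not given, and no library of another genotype was used. With 1 library per age there is no replicate check and no test between conditions, and an effect of age cannot be told apart from how each library was made and counted. Levels are in CPM, the UMIs of a gene scaled to an equal total in every group of cells. Ptch1 itself stood at 156 CPM in the P12 library and at 12.2 CPM in the other; the deleted stretch was not given and the 3′ ends were sequenced, so this does not check the deletion.

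After cells under 500 UMIs or above 20% mitochondrial UMIs were left out, 5723 cells of the P12 library, with a median of 1805 UMIs, and 4796 of the P24-30 library, with a median of 2193.5 UMIs, remained. The P12 cells were clustered without the guidance genes. 3316 cells (median 2071.5 UMIs) carried cell-cycle genes and are called cycling, 595 cells (1435 UMIs) carried markers of differentiating granule neurons and are called neuron-like, and 107 cells (1602 UMIs) carried oligodendrocyte-lineage markers and are the glial class at P12. Clusters 6 and 7, of 674 and 817 cells, passed no marker list and stay unnamed. The P24-30 cells carry the submitters' tags G1 to G16, whose meaning was not given. By the same marker lists G1, G2, G3, G6 and G16 were cycling (2305 cells, median 2705 UMIs), G11, G12 and G13 were neuron-like (797 cells, 1625 UMIs), G4, G5, G7, G14 and G15 stayed unnamed, and G10, a tag of shallow cells, was set apart. The 10 leading genes of G13 included neuron markers, whereas those of G11 and G12 did not. Each was named by the list's mean log2 ratio, 1.12 in G11, 1.14 in G12 and 0.993 in G13. Of its 16 markers, 11, 10 and 7 were at least 2-fold higher in G11, G12 and G13. Glial, immune and vascular cells, 169 in all, were taken out of the tags. All 11 markers of granule progenitors, the cells from which Hedgehog-driven medulloblastoma arises, were present in the cycling cells of both libraries, summing to 5886 CPM and 4110 CPM. At P12 the same list summed to 3804 CPM in neuron-like and 6393 CPM in unnamed cells. At P24-30 it summed to 5030 CPM in the neuron-like and 4852 CPM in the unnamed tags, so it does not set the cycling cells apart.

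Axon guidance works through pairs of surface or secreted ligands and their receptors, which attract or repel the growth cone by changing actin and microtubules. Semaphorins signal through plexins, with neuropilins as co-receptors for the secreted class 3 members. Ephrins bind Eph receptor tyrosine kinases on neighbouring cells, Slits bind Robo receptors, and netrins bind Dcc and Unc5 receptors. In the developing cerebellum, granule cell progenitors divide in the outer layer and their daughters extend axons and migrate inwards; class 6 semaphorins with their A-type plexins are known for a part in this migration.

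The neuron-like cells carried more RNA of Sema6a, Sema6b and Sema6c, of both Unc5 receptors, and of Sema4f, Sema4g, Ephb1, Efna4 and Plxna3 than the cycling cells of the same library, at both ages. At P12, 15 of 45 guidance genes (33.3%) were higher in neuron-like cells, where 11.3% of all 12227 genes were, and 2 were lower, where 11.8% of all genes were. At P24-30, 13 of 45 (28.9%) were higher in the neuron-like tags, where 10.3% of all genes were, and 0 were lower, where 8.69% of all genes were. Higher and lower mean past 2-fold after division by the ratio of the median gene, with an exact 95% interval on 1 side of 1; these intervals, like all those below, cover counting error only. The median log2 ratio of the guidance genes was 0.51 at P12 and 0.58 at P24-30, against 0 for all genes by construction. 28 of the 45 stood above 1 at P12 and 37 at P24-30.

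10 genes were higher in both libraries: Efna4, Ephb1, Plxna3, Sema4f, Sema4g, Sema6a, Sema6b, Sema6c, Unc5b and Unc5c. They were 66.7% of the genes higher at P12 and 76.9% of those higher at P24-30; over all genes these shares were 50.3% and 55.3%. As a share of the 45 guidance genes they were 22.2%, where 5.68% of all genes were higher in both libraries. No guidance gene was lower in both, where 6.38% of all genes were. Of the 10, Efna4, Sema6b and Unc5c each lost the P24-30 call under at least 1 alternative, Efna4 at 1.99 with glial, immune and vascular cells left in the tags and Sema6b at 2.66 with that library's own clusters, where its interval no longer lay on 1 side of 1. Unc5b reached the minimum of 50 UMIs only through its UMIs in neuron-like cells.

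**Figure D1:**
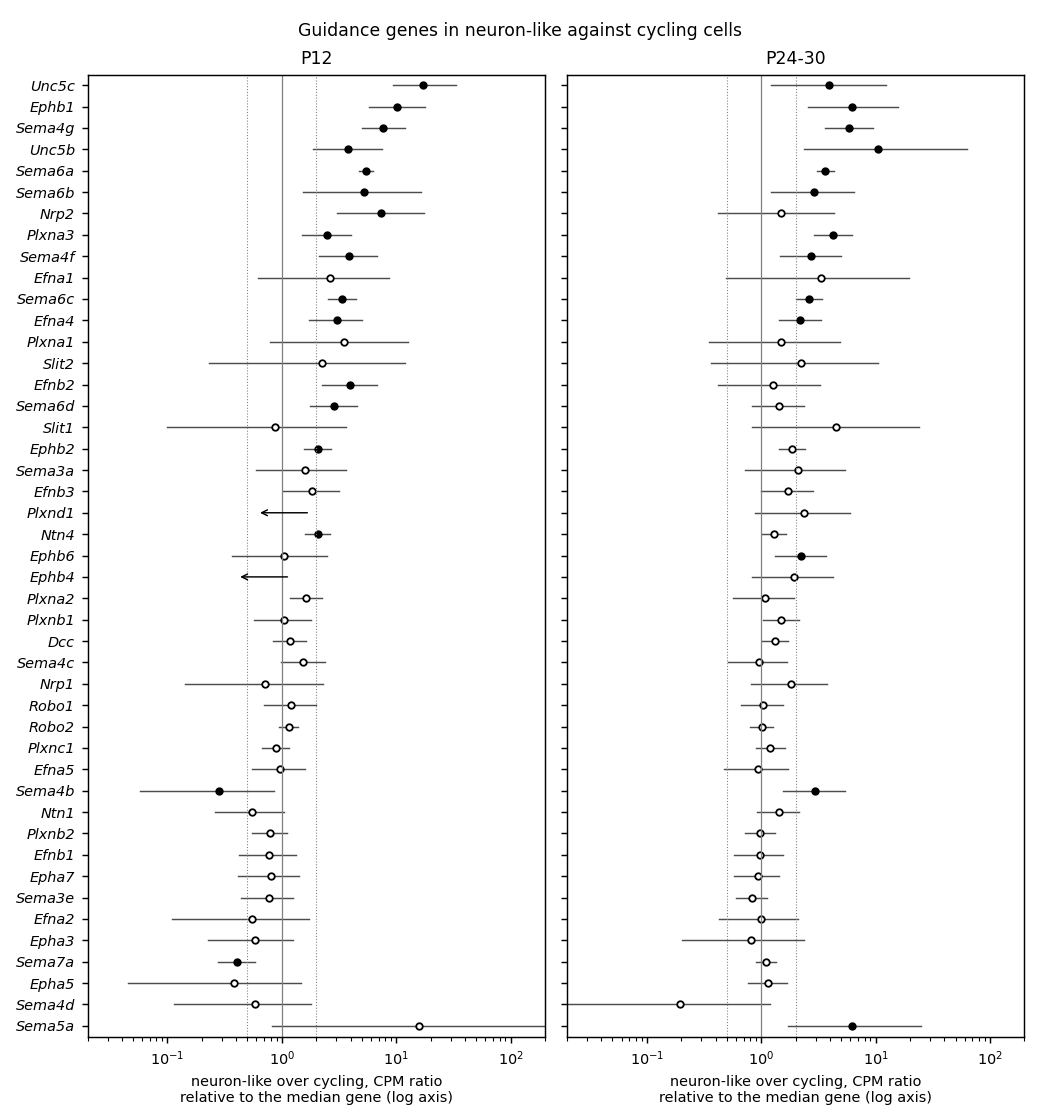
Ratio of each guidance gene in neuron-like over cycling cells, relative to the median gene, at P12 and at P24-30, on log axes with 95% intervals for counting error. Filled points are called and open points are not, dotted lines mark 2-fold, and arrows stand for genes with 0 UMIs in 1 class. Sema6a, Sema4g, Unc5c and Ephb1 lie well above 1 in both libraries, whereas Sema7a and Sema4b lie below 1 at P12 alone.

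Among the ligands, the class 6 semaphorins, transmembrane proteins that bind A-type plexins, were higher in 4 of 4 members at P12 and in 3 of 4 at P24-30. Sema6a, on chromosome 18 from 47235598 to 47368870 (mm10), had 349 UMIs and 369 CPM in P12 neuron-like cells against 504 UMIs and 64.8 CPM in cycling cells, a relative ratio of 5.47 (95% interval 4.76 to 6.28). At P24-30 it had 177 CPM in the neuron-like tags and 42.0 CPM in the cycling tags, a ratio of 3.63 (3.04 to 4.32). The neuron-like values of both libraries therefore lay above the cycling values of both.

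The share of cells with a Sema6a UMI moved the same way when every cell was thinned to 500 UMIs. It was 16.8% (Clopper-Pearson interval 13.9 to 20.1) of P12 neuron-like cells and 2.74% (2.22 to 3.36) of P12 cycling cells, or 41.2% and 12.7% unthinned. At P24-30 it was 7.53% (5.79 to 9.58) of the neuron-like tags and 2.47% (1.88 to 3.19) of the cycling tags, or 20.8% and 10.2% unthinned. Microglia-like cells, a class that should hold little of this RNA and was of similar depth, had it in 1.23% at P12 (0.0313 to 6.69; median 2091 UMIs) and in 0 of 54 cells at P24-30, where the upper limit is 5.56%. The thinned cycling shares lay inside these microglia-like limits, so these shares could not be told from background at this number of cells. The thinned neuron-like shares lay above the P12 interval's upper bound, and above the P24-30 limit for 0. Unthinned, 2.47% of P12 microglia-like cells had a Sema6a UMI, against 12.7% of P12 cycling cells of similar depth.

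Sema6c followed at 77.3 CPM against 22 CPM at P12 (ratio 3.37, 2.53 to 4.46) and 70.2 against 23.3 CPM at P24-30 (2.60, 2.00 to 3.37). These levels hardly differ between the libraries in either class. Sema6b was sparse, with 6 and 9 UMIs at P12 (5.27, 1.54 to 16.6) and 11 and 17 at P24-30 (2.89, 1.22 to 6.53). Sema6d was higher at P12 alone, at 27.5 against 9.25 CPM (2.85, 1.75 to 4.52), and the call was lost at a coarser clustering (1.27); at P24-30 it stood at 15.5 and 9.29 CPM (1.44, 0.837 to 2.39).

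The class 4 semaphorins, whose receptors include B-type plexins, were mixed: 2 of 5 were higher and 1 lower at P12, and 3 of 5 were higher at P24-30. Sema4g had 48.7 CPM in P12 neuron-like cells and 6.04 CPM in cycling cells (7.73, 5.04 to 11.9), and 31.8 and 4.72 CPM at P24-30 (5.81, 3.61 to 9.44). Sema4f had 20.1 and 5.01 CPM at P12 (3.85, 2.10 to 6.82) and 14 and 4.43 CPM at P24-30 (2.73, 1.46 to 5.0). Sema4b went opposite ways: it had 3 UMIs (3.17 CPM) in P12 neuron-like cells against 84 UMIs (10.8 CPM) in cycling cells (0.282, 0.0570 to 0.853), and 19 UMIs (14 CPM) against 29 (4.15 CPM) at P24-30 (2.92, 1.55 to 5.39). The P12 value rests on 3 molecules and was no longer past 2-fold at the coarser clustering (0.748). Sema4c and Sema4d passed in neither library, Sema4c at 27.5 against 17.1 CPM at P12 and 11.1 against 10.01 CPM at P24-30, Sema4d at 3.17 against 5.27 and 0.739 against 3.29 CPM.

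Sema7a, a membrane-anchored semaphorin that signals through plexin C1 and integrins, was the other ligand with a lower value in P12 neuron-like cells. It had 32 UMIs (33.9 CPM) there and 618 UMIs (79.4 CPM) in cycling cells, a ratio of 0.409 (0.277 to 0.584). At P24-30 the levels were 95.3 and 74.3 CPM (1.11, 0.906 to 1.34), and the intervals of the libraries did not meet; whether they differ between ages was not tested. With the P24-30 library's own clusters in place of the tags, its ratio was 0.730. The coarser clustering moved the P12 ratio to 0.644. Thinned to 500 UMIs, 1.85% (0.926 to 3.28) of P12 neuron-like and 3.86% (3.23 to 4.57) of P12 cycling cells had a Sema7a UMI, and 5.04% and 16% unthinned. In microglia-like cells it was 0 of 81, with an upper limit of 3.70%. The thinned shares at P12 lie close to that limit and give no order of their own.

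The secreted class 3 semaphorins Sema3e and Sema3a passed in neither library. Sema3e, a ligand of plexin D1, had 19.1 and 23.9 CPM in P12 neuron-like and cycling cells and 37.7 and 39.5 CPM at P24-30. Sema3a had 7 and 35 UMIs at P12 and 7 and 15 at P24-30. Sema5a, a transmembrane semaphorin, had 2 UMIs against 1 at P12, and 7 against 5 at P24-30 (6.25, 1.71 to 25.0), the only library in which it passed. Of those 7 UMIs, 4 came from 1 shallow cell of G13 with 624 UMIs, and the ratio without that cell was not computed.

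The plexins, the semaphorin receptors, contributed 1 of 7 higher genes in each library, the same gene in both. Plxna3 had 24.3 and 9.38 CPM at P12 (2.49, 1.49 to 4.02) and 42.1 and 8.58 CPM at P24-30 (4.24, 2.90 to 6.19). Plxna2, which binds Sema6a, had 51.9 and 30.5 CPM at P12 (1.63, 1.18 to 2.23) and 11.1 and 8.86 CPM at P24-30 (1.08, 0.570 to 1.92). Plxnc1, the receptor of Sema7a, had 63.5 and 68.9 CPM at P12 and 45.8 and 32.9 CPM at P24-30. Plxnb2, a receptor of class 4 semaphorins known from granule progenitors, had 39.2 and 47.8 CPM at P12 and 43.6 and 38.3 CPM at P24-30. Of the neuropilins, Nrp2 was higher at P12 (12 UMIs against 13, ratio 7.29, 3.04 to 17.3) and not at P24-30 (5 against 15, 1.49, 0.423 to 4.30), and Nrp1 passed in neither.

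The promoters of 4 of these genes are shown because they stand for the patterns just given: Sema6c and Plxna3 were higher in neuron-like cells of both libraries, Sema7a was lower at P12, and Robo2, described below, passed in neither. Each is the 250 bases upstream of a start, from RefSeq on build GRCm38.p6, 5′ to 3′ on the gene's strand. Capitals mark CAGCTG, the E-box that Atoh1, the progenitor transcription factor, and many other basic helix-loop-helix factors can bind. They lie at chr3:95160170-95160419 (plus strand, Sema6c), chrX:74328816-74329065 (plus, Plxna3), chr9:57939862-57940111 (plus, Sema7a) and chr16:74411826-74412075 (minus, Robo2), and none overlaps an annotated exon.
Sema6c: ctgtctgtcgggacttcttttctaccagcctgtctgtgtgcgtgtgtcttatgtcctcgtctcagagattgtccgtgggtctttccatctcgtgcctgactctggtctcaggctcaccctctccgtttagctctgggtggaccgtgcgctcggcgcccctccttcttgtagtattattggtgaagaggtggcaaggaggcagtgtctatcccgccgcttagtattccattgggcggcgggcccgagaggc
Plxna3: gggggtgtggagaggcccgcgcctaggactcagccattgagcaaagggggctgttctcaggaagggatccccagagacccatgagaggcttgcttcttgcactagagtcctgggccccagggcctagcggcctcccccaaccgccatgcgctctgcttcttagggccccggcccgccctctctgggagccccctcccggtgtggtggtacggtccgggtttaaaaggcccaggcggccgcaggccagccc
Sema7a: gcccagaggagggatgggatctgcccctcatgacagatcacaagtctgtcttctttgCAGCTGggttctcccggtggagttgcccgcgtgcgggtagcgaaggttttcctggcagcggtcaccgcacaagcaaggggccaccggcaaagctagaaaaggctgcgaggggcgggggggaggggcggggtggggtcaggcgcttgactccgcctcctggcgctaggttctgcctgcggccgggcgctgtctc
Robo2: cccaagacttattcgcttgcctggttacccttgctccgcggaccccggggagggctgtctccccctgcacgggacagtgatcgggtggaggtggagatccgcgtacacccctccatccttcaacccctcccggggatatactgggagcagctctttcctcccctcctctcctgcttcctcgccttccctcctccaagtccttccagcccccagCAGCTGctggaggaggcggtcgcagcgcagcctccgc

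Promoters were found for 39 of the 45 guidance genes and for 27025 genes in all. CAGCTG, which reads the same on both strands, lay in this window of 5 of 39 guidance genes (12.8%; Robo2, Sema4d, Sema4g, Sema6c and Sema7a) and of 14.7% of all genes; for Sema6c it lay at another start than the one printed, and for Robo2 it lay at the printed start and at none of its other 2 RefSeq starts. The E-box CAGATG, searched on both strands as a NeuroD motif, lay in 0 of 39 and in 16.3% of all genes. TGGGTGGTC, the GLI motif of the Hedgehog pathway, searched on both strands, lay in 0 of 39 and in 0.255% of all genes. Median GC content was 64.4% for the guidance genes' promoters and 52.4% for all. No match says only that these letters are not in this window.

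The Eph receptors were higher in 2 of 7 genes in each library. Ephb1 had 32 UMIs (33.9 CPM) in P12 neuron-like cells and 25 (3.21 CPM) in cycling cells (10.1, 5.81 to 17.8), and 14 (10.3 CPM) and 10 (1.43 CPM) at P24-30 (6.25, 2.58 to 15.7). Ephb2 had 72.0 and 33.4 CPM at P12 (2.07, 1.56 to 2.71), just past 2-fold, and 61.3 and 28.3 CPM at P24-30 (1.87, 1.43 to 2.43), just short of it. At coarser and finer clusterings the P12 ratio was 1.85 and 1.97. Its levels were thus nearly the same in both libraries, on either side of the threshold. Ephb6, an Eph receptor without kinase activity, was higher at P24-30 alone (18.5 and 7.15 CPM; 2.23, 1.32 to 3.67), against 6.35 and 5.78 CPM at P12. The A-type receptors Epha3, Epha5 and Epha7 passed in neither library, Epha7 at 13.8 and 16.6 CPM at P12 and 18.5 and 17.2 CPM at P24-30.

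Among the ephrins, the ligands of the Eph receptors, 2 of 7 were higher at P12 and 1 at P24-30. Efna4, held by a lipid anchor, had 22.2 and 7.07 CPM at P12 (3.02, 1.73 to 5.07) and 25.9 and 10.1 CPM at P24-30 (2.20, 1.42 to 3.34). Efnb2, a transmembrane ephrin, had 23.3 and 5.66 CPM at P12 (3.95, 2.25 to 6.73) and 4.43 and 3.0 CPM at P24-30 (1.27, 0.421 to 3.27). Efnb1 had 15.9 and 19.7 CPM at P12 and 15.5 and 13.9 CPM at P24-30, and Efna5 had 18 and 17.9 CPM, then 9.61 and 8.86 CPM. Efnb1 was lower in neuron-like cells of P24-30 (0.481) when that library's own clusters replaced the tags.

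Of the netrin and Slit systems, both Unc5 genes, the repulsive netrin receptors, were higher in both libraries. Unc5c, known for keeping granule cells from invading neighbouring brain regions, had 35 UMIs (37.0 CPM) against 16 (2.06 CPM) at P12 (17.3, 9.32 to 33.4), and 7 (5.17 CPM) against 8 (1.14 CPM) at P24-30 (3.90, 1.21 to 12.3). The P24-30 call was lost when the library's own clusters replaced the tags (3.80, interval not on 1 side of 1). Unc5b had 14 against 29 UMIs at P12 (3.81, 1.86 to 7.45) and 7 against 3 at P24-30 (10.4, 2.38 to 62.4). Dcc, the attractive netrin receptor, had 46.6 and 38.2 CPM at P12 (1.17, 0.833 to 1.61) and 55.4 and 36.2 CPM at P24-30 (1.32, 1.01 to 1.72), and did not pass. Ntn4, a netrin, had 85.7 and 39.7 CPM at P12 (2.07, 1.60 to 2.65) and 69.5 and 46.0 CPM at P24-30 (1.30, 1.02 to 1.64); the P12 call lies at the threshold and moved to 1.75 and 1.85 at coarser and finer clusterings.

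Robo1, Robo2, Slit1 and Slit2 passed in neither library. Robo2, the guidance gene with most UMIs (2476), had 139 UMIs (147 CPM) in P12 neuron-like cells and 958 (123 CPM) in cycling cells (1.15, 0.952 to 1.37). At P24-30 it had 68.0 and 57.9 CPM (1.01, 0.799 to 1.27). Neither interval lay on 1 side of 1; with that library's clusters in place of the tags the P24-30 ratio was 0.547. Both classes stood higher at P12. The remaining genes that passed in neither library were Efna1, Efna2, Efnb3, Ephb4, Ntn1, Plxna1, Plxnb1 and Plxnd1; among them Efnb3 had 18 and 9.38 CPM at P12 (1.84, 1.02 to 3.15) and 16.3 and 8.15 CPM at P24-30 (1.72, 1.00 to 2.86), and Ntn1 had 10.6 and 18.4 CPM, then 22.9 and 13.9 CPM. Unc50 had 75.1 and 63.5 CPM, then 53.2 and 43.3 CPM.

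The other cell types' markers in these classes are given beside the results. The summed oligodendrocyte list stood at 537 CPM in neuron-like and 346 CPM in cycling cells at P12, and at 434 and 249 CPM at P24-30. The microglia list stood at 25.4 and 31.4 CPM, and at 24.4 and 23.4 CPM. The list of GABAergic neurons stood at 761 and 349 CPM, and at 705 and 345 CPM, and the endothelial list at 2.1 and 0.9 CPM, and at 18.5 and 4.0 CPM. The unipolar brush cell list, of another glutamatergic neuron of the cerebellum, stood at 56.1 and 1.16 CPM at P12 and at 22.2 and 2.72 CPM at P24-30. The choroid plexus list stood at 106 and 98.3 CPM, then at 360 and 203 CPM, the pericyte list at 5.29 and 7.07 CPM, then at 35.5 and 11.6 CPM, and the astrocyte list at 307 and 318 CPM, then at 469 and 313 CPM. The Purkinje list stood at 31.8 and 57.1 CPM, then at 76.1 and 45.6 CPM, and the erythroid list at 33.9 and 87.5 CPM, then at 42.1 and 353 CPM. In the neuron-like cells Sox10, of the oligodendrocyte list, was at 0 in both libraries, as were P2ry12 and Tyrobp of the microglia list; Pax2 and Lhx5 of the GABAergic list were at 0 at P12 and Gad1 at P24-30, Pecam1, Esam and Cdh5 of the endothelial list at P12, and Lmx1a of the unipolar brush cell list at P12. Of the 8 endothelial markers, 5 are listed at P12 and 8 at P24-30. The oligodendrocyte, GABAergic, endothelial, unipolar brush cell and choroid plexus lists thus stood higher in the neuron-like class of both libraries. The choroid plexus difference at P12 was small, 106 against 98.3 CPM. The pericyte, astrocyte and Purkinje lists stood higher there at P24-30 alone, and the erythroid list stood higher in the cycling class of both. In G11 the GABAergic list stood at 645 CPM with 6 of its 7 markers at 0, so that sum came from Lhx1 alone. Lhx1 was also among the 10 leading genes of the unnamed P12 cluster 6. The part of these lists in the guidance ratios was not tested. Doublets were not removed.

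**Figure D2:**
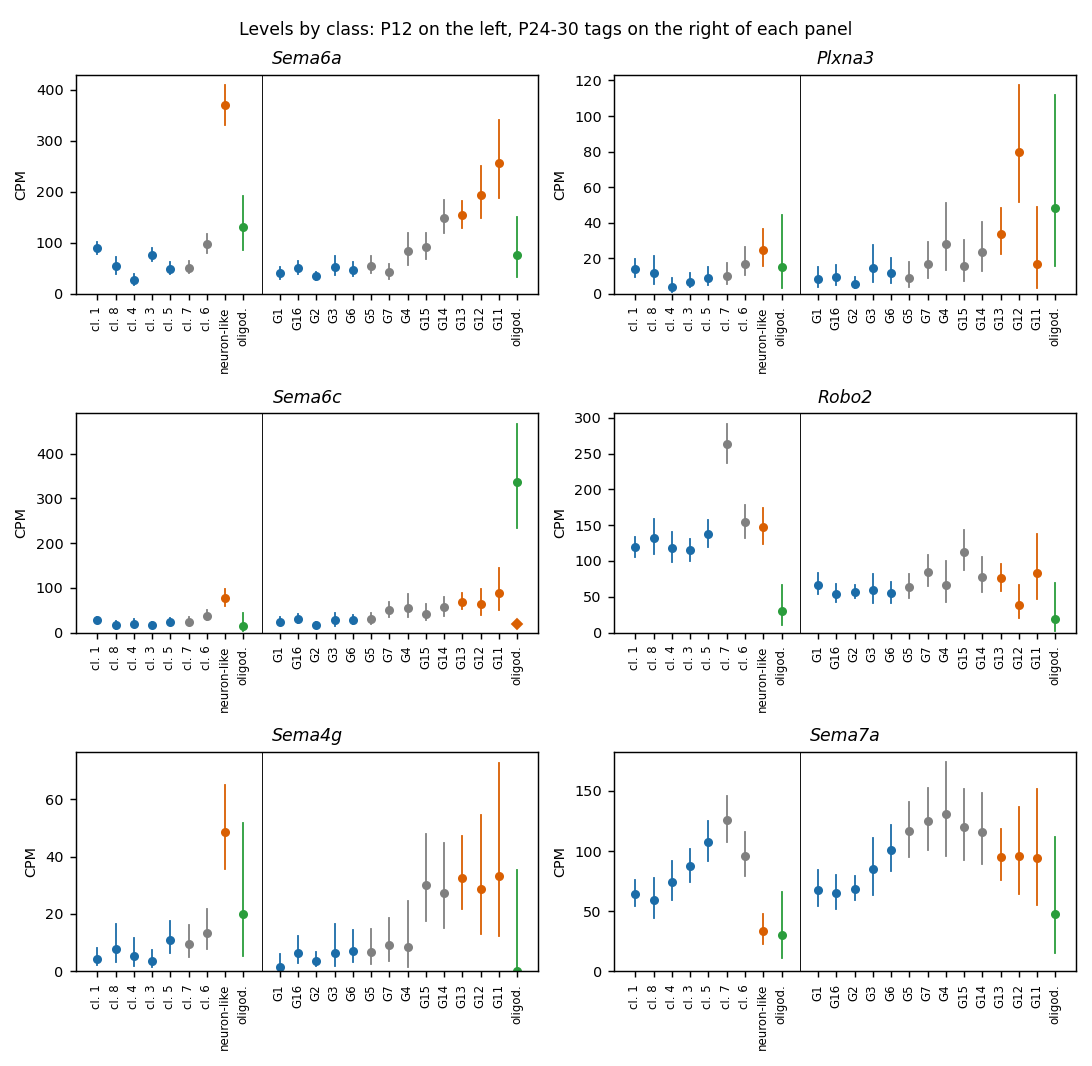
Levels in CPM of Sema6a, Sema6c, Sema4g, Plxna3, Robo2 and Sema7a in the P12 clusters and classes (left of the line) and the P24-30 tags (right), with 95% Poisson intervals; blue is cycling, grey unnamed, orange neuron-like and green oligodendrocyte-lineage-like (the orange diamond is Sema6c without 1 cell). Sema6a stands highest in the neuron-like groups of both libraries, whereas Robo2 stands highest in cluster 7 of P12.

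Across the 13 tags of P24-30 with at least 100 cells, guidance genes were most often highest in a neuron-like tag. The highest tag was neuron-like for 29 of 45 genes (64.4%; 43.2% of all genes), unnamed for 13 (28.9%; 31.3%) and cycling for 3 (6.67%; 25.5%). G11, the smallest of these tags at 179760 UMIs, has 5.56 CPM per UMI, so sparse genes can peak there on few molecules. Efna1 and Efnb2 were highest in G11 on 1 UMI each, Epha3, Plxnd1 and Sema3a on 2 each, and Plxna2 on 3. The part of tag size in these shares was not tested. All 3 neuron-like tags lay above all 5 cycling tags for 11 genes (24.4%), where 17.2% of all genes did so, and all 5 cycling tags lay above for 1, Sema4d, where 9.38% of all genes did so. The 11 were Ephb1, Ephb2, Ephb4, Ephb6, Plxna3, Plxnc1, Sema4f, Sema4g, Sema6a, Sema6c and Unc5b. For 18 genes the intervals of the highest and lowest tag did not meet. Those tags were picked as the extremes of 13, and the share over all genes was not counted, so this number has no background. The tags were made by the submitters, and whether guidance genes took part in making them was not given.

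Sema6a had an order that ran with the marker classes. Its level was 33.9 CPM in G2, 40.1 in G1, 47.4 in G6, 50.3 in G16 and 52.9 in G3, the cycling tags. The unnamed tags spread from 41.6 CPM in G7 and 55.3 in G5 through 83.5 in G4 and 91.5 in G15 to 149 in G14. The neuron-like tags stood at 154 CPM in G13, 194 in G12 and 256 in G11. The 3 neuron-like tags lay above every other tag, although G14 (118 to 184) and G13 (129 to 182) overlapped in their intervals, as did neighbours within the cycling tags.

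Other genes peaked in other tags. Sema6c went from 17.2 CPM in G2 to 89.0 CPM in G11 and Sema4g from 1.64 CPM in G1 to 33.4 CPM in G11, with 29.9 CPM in the unnamed G15. Plxna3 and Efnb3 were highest in G12, Plxna3 at 79.6 CPM (51.5 to 117) against 33.8 CPM (22.6 to 48.5) in G13, and Efnb3, a transmembrane ephrin known as a midline barrier, at 41.4 CPM (22.04 to 70.8) against 8.15 CPM (3.28 to 16.8) in G13. In Plxna3 and Efnb3 the intervals of G12 and G13 did not meet. These genes were picked from the guidance genes because they peaked in G12, and the share of all genes with such a gap was not counted. Robo2 was lowest in G12 at 38.2 CPM (19.7 to 66.7) and highest in the unnamed G15 at 113 CPM (86.8 to 144). Sema7a was highest in the unnamed G4 at 131 CPM and lowest in G16 at 64.9 CPM, and Dcc was highest in G4 at 64.0 CPM (40.6 to 96.0) and lowest in G16 at 22.6 CPM (15.4 to 32.1).

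**Figure D3:**
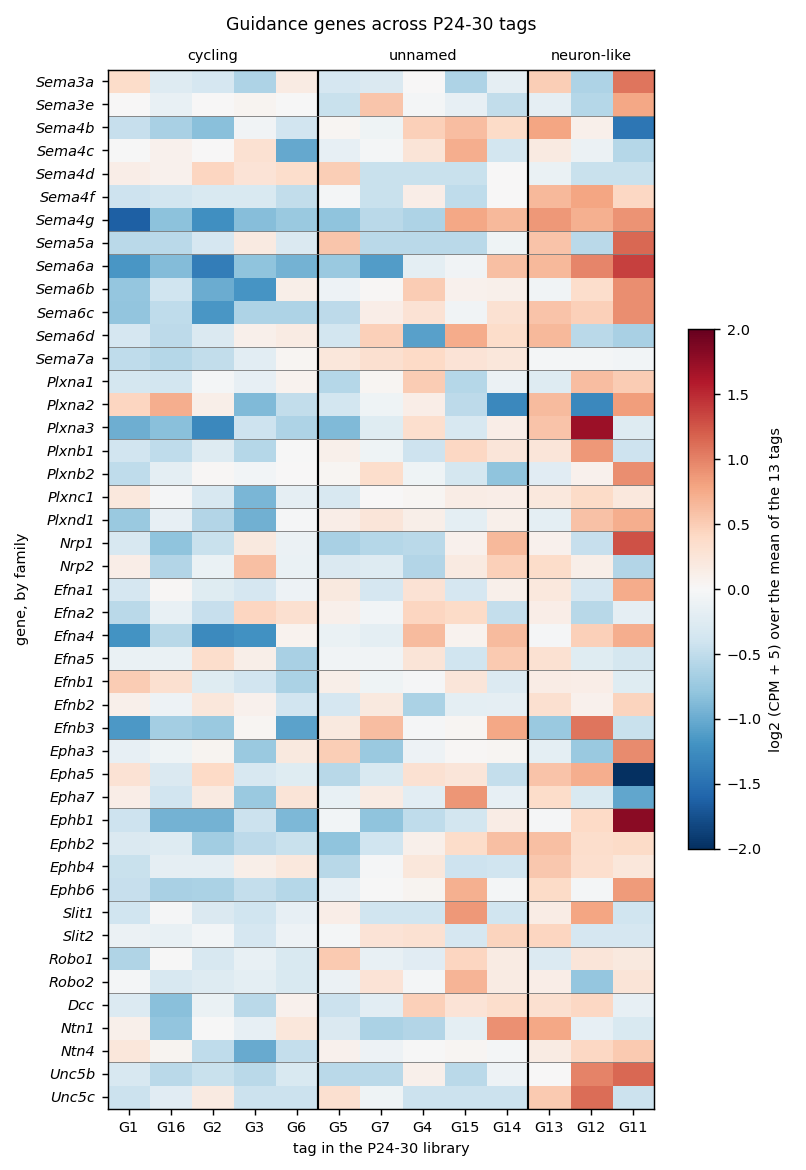
Guidance gene levels across the P24-30 tags, as log2 of CPM plus 5 relative to each gene's mean over the tags, with genes by family and tags by marker class. Sema6a, Sema6c and Sema4g are lowest in the cycling tags and highest in neuron-like tags, and Plxna3 peaks in G12.

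In the P12 library the unnamed cluster 7, led by Rgs5 and Hes1, held the highest Robo2 level of the cell classes of the tumour lineage, 263 CPM (237 to 292), against 154 CPM (133 to 178) in the unnamed cluster 6, 147 CPM in neuron-like and 123 CPM in cycling cells. Sema7a had 126 CPM (108 to 146) in cluster 7, 96.1 CPM (79.3 to 115) in cluster 6, 79.4 CPM in cycling and 33.9 CPM in neuron-like cells. Sema6d, which was higher in neuron-like cells, had 30.7 CPM (22.1 to 41.5) in cluster 7 and 4.21 CPM (1.37 to 9.83) in cluster 6.

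Within the cycling cells, levels also varied between clusters and between tags. Clusters 1 and 8 of P12 and tags G1 and G16 of P24-30 were led by G2 and M genes such as Cdc20, Cenpa, Prc1 and Ube2c, and cluster 5 and tag G3 by S genes such as Ung, Hells and Pcna. Clusters 3 and 4 and tag G2 were led by histone genes and G6 by haemoglobin genes, and they are left out of the values that follow. Plxna2 had 35.0 CPM (27.7 to 43.5) in cluster 1 and 53.6 CPM (39.4 to 71.3) in cluster 8, against 16.8 CPM (11 to 24.6) in cluster 5. At P24-30 it had 14 UMIs in G1 and 21 in G16 against 1 in G3, where the intervals of G1 (6.27 to 19.2 CPM) and G3 (0.0405 to 8.92 CPM) overlapped. Sema7a had 64.3 CPM (54.3 to 75.6) in cluster 1 and 59.4 CPM (44.3 to 77.8) in cluster 8, against 107 CPM (91.5 to 125) in cluster 5. At P24-30 its intervals overlapped, at 68.0 CPM in G1, 64.9 CPM in G16 and 84.9 CPM in G3. Dcc had 33.2, 18.3 and 44.6 CPM in clusters 1, 8 and 5, and 36.0, 22.6 and 28.8 CPM in G1, G16 and G3. Of the 29 Unc5b UMIs in cycling cells of P12, 23 were in cluster 1. The Plxna2 and Sema7a intervals of clusters 1 and 8 thus lay apart from those of cluster 5 at P12. The genes given here were picked from the guidance genes, and the share of all genes with such a gap was not counted.

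In the oligodendrocyte-lineage-like cells Sema5a had the highest ratio over the cycling cells in both libraries. At P12, 10 of 45 guidance genes were higher in them than in cycling cells, where 10.7% of all genes were, and 3 were lower, where 12% of all genes were. A further 11 had 0 UMIs in the 107 cells. In the 48 such cells of P24-30, 8 were higher, where 7.21% of all genes were, and 3 lower, where 14% of all genes were; 14 had 0 UMIs. Efnb3, Epha5, Ephb1, Nrp2, Sema5a and Unc5c were higher in both libraries, 60% of the first list and 75% of the second, where these shares over all genes were 45.2% and 67.4%. They were 13.3% of the guidance genes, where 4.86% of all genes were higher in both. Robo2 and Sema7a were lower in both, where 7.16% of all genes were.

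Sema5a, on chromosome 15 from 32244810 to 32696341, had 20 UMIs (101 CPM) in the P12 oligodendrocyte-lineage-like cells and 1 UMI (0.129 CPM) in the cycling cells, a relative ratio of 640 (102 to 26527). At P24-30 it had 11 UMIs (106 CPM) and 5 UMIs (0.715 CPM), a ratio of 91.3 (29.2 to 335). Sema5a had 64 UMIs in all over both libraries, 20 and 11 of them from this class, so it reached the minimum of 50 UMIs only through the class in which it is high. Unc5c had 55.4 against 2.06 CPM at P12 (22, 9.23 to 50.5) and 2 against 8 UMIs at P24-30 (10.4, 1.07 to 52.0). Ephb1 had 50.4 against 3.21 CPM at P12 (12.8, 5.49 to 27.6) and 48.0 against 1.43 CPM at P24-30 (20.8, 5.57 to 66.6). Nrp2 had 7 UMIs against 13 at P12 (17.2, 5.82 to 46.5) and 4 against 15 at P24-30 (11.1, 2.67 to 34.7). Unc5c, Ephb1 and, at P12, Nrp2 were thus above the cycling cells in the neuron-like class as well.

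Epha5 had 25.2 against 5.27 CPM at P12 (3.90, 1.2 to 9.87; not past the rule in several alternatives) and 76.8 against 19.0 CPM at P24-30 (2.5, 1.06 to 5.06). Efnb3 had 45.3 against 9.38 CPM (3.95, 1.74 to 7.91) and 48.0 against 8.15 CPM (3.64, 1.14 to 9.0). Sema6d had 80.6 against 9.25 CPM at P12 (7.11, 3.86 to 12.3), and 1 UMI at P24-30. Robo1 had 70.5 against 15.9 CPM at P12 (3.61, 1.92 to 6.29) and 67.2 against 18.6 CPM at P24-30 (2.23, 0.881 to 4.74). Sema6b and Plxnb1 completed the list at P12, with 3 and 9 UMIs in the glial cells. Robo2 went the other way, with 6 UMIs (30.2 CPM) against 123 CPM at P12 (0.200, 0.0734 to 0.438) and 2 UMIs (19.2 CPM) against 57.9 CPM at P24-30 (0.205, 0.0247 to 0.745). Robo1 and Robo2, receptors of the same Slit ligands, therefore lay on opposite sides of the cycling cells at P12.

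Sema7a had 30.2 against 79.4 CPM at P12 (0.311, 0.114 to 0.680) and 48.0 against 74.3 CPM at P24-30 (0.399, 0.129 to 0.937). Dcc was lower at P12 on 3 UMIs (0.323, 0.0663 to 0.954), a call lost in several alternatives, and Plxnb2 at P24-30 on 1 UMI (0.155, 0.00391 to 0.870). Plxna3 was higher at P24-30 on 5 UMIs (3.46, 1.08 to 8.53). Sema6c appeared at 336 CPM in the P24-30 cells (8.91, 6.00 to 12.9), but 33 of its 35 UMIs came from a single cell of 974 UMIs; without that cell it stood at 19.2 CPM (0.509, 0.0611 to 1.87). The summed oligodendrocyte list stood at 10802 CPM in this class at P12 and 23268 CPM at P24-30, and the neuron list at 3653 and 3627 CPM, beside 3384 and 2775 CPM in cycling cells. The astrocyte and Bergmann glia list stood at 3905 CPM in this class against 318 CPM in cycling cells at P12, and at 2504 against 313 CPM at P24-30; the part of such cells in these ratios was not tested.

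**Figure D4:**
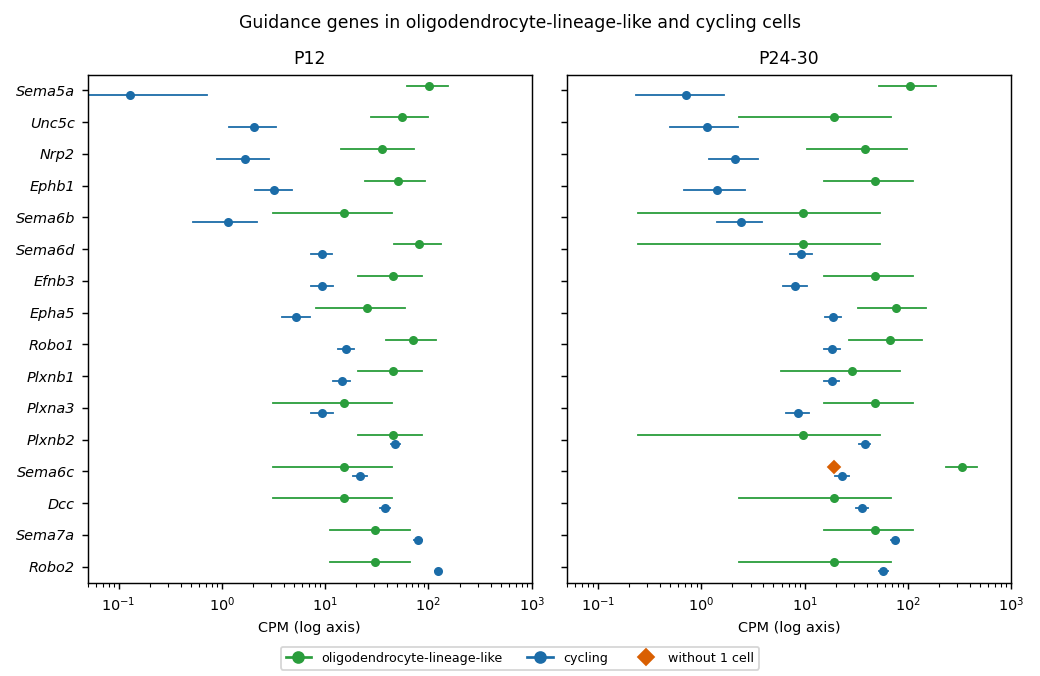
CPM (log axis) of the guidance genes named for the oligodendrocyte-lineage-like class, in that class and in cycling cells, by library, with 95% Poisson intervals. Sema5a stands near 100 CPM in the class of both libraries, and the diamond shows Sema6c at 19.2 CPM without 1 cell.

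Between the libraries, P24-30 against P12 over all kept cells, 8 of 45 guidance genes were higher, where 12.3% of all genes were, and 3 were lower, where 3.6% of all genes were. The median log2 ratio of the guidance genes was 0.23; the median gene, to which all ratios are relative, had a plain log2 ratio of -0.26. The genes higher at P24-30 were Epha5, Ephb1, Sema6b, Plxnd1, Plxnb1, Ephb6, Slit2 and Sema3e. Those lower were Epha3, Plxna2 and Unc5c. Before cells were left out, Sema6b, Plxnd1 and Slit2 had 25, 31 and 22 UMIs at P12, and 60, 59 and 38 at P24-30. Each of these genes reached the UMI minimum only through the UMIs of P24-30, the library in which it is higher. Among the lower genes, Epha3 and Unc5c had 133 and 73 UMIs at P12, and 37 and 23 at P24-30. They reached the minimum only through the UMIs of P12. With cells that hold at least 10 UMIs and 5% of a gene left out, 6 were higher and 3 lower, Ephb1 and Plxnb1 being the difference.

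Epha5, an Eph receptor on chromosome 5 from 84054761 to 84417382, had 68 UMIs (5.73 CPM) at P12 and 224 UMIs (18.5 CPM) at P24-30, a ratio of 3.87 (2.94 to 5.15). Within cycling cells it was 4.48 (3.13 to 6.52), from 5.27 to 19.0 CPM, and within neuron-like cells 12.9 (3.31 to 111), from 2 to 34 UMIs. The related receptor Epha3 went the other way, from 11.1 CPM at P12 to 3.05 CPM at P24-30 (0.329, 0.222 to 0.477), and within cycling cells from 12.2 to 3.15 CPM (0.320, 0.191 to 0.513). In neuron-like cells Epha3 did not pass, on 7 and 4 UMIs (0.433). The third A-type receptor, Epha7, stood at 17 and 18.1 CPM (1.27, 1.05 to 1.55).

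Plxna2, on chromosome 1 from 194618218 to 194816869, had 368 UMIs (31.0 CPM) at P12 and 108 (8.91 CPM) at P24-30 (0.345, 0.275 to 0.428), with 0.361 (0.269 to 0.480) within cycling and 0.232 (0.121 to 0.421) within neuron-like cells. Its ligand Sema6a stood at 91.2 and 68.0 CPM over all cells (0.894, 0.816 to 0.980), and at 369 and 177 CPM in neuron-like cells (0.520, 0.439 to 0.614), short of 2-fold. Unc5c had 5.73 and 1.81 CPM (0.380, 0.224 to 0.622), with 0.152 (0.0569 to 0.347) within neuron-like cells and 0.690, not past 2-fold, within cycling cells. Robo2, on chromosome 16 from 73891839 to 74411825, had 1671 UMIs (141 CPM) in the younger library and 755 (62.3 CPM) in the older, a plain ratio of 0.442 and a relative ratio of 0.530 (0.486 to 0.578), so its side of 2-fold depends on the scaling.

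Sema3e had 271 UMIs (22.8 CPM) at P12 and 464 (38.3 CPM) at P24-30 (2.01, 1.73 to 2.34), and its receptor gene Plxnd1 30 and 55 UMIs (2.15, 1.36 to 3.48). Sema3e passed within cycling cells (2.05, 1.70 to 2.48) and within neuron-like cells (2.15, 1.24 to 3.91) too. Ephb6 (2.03, 1.51 to 2.74), Slit2 (2.01, 1.14 to 3.63) and Sema6b (2.69, 1.64 to 4.54) completed the list. Slit2 was at 1.46 and Sema3e at 1.98 without glial, immune and vascular cells, and Sema6b did not pass within neuron-like cells (1.39). Without division by the median gene, Ephb6, Plxnb1, Plxnd1, Sema3e and Slit2 all lay under 2-fold, at 1.69, 1.78, 1.80, 1.68 and 1.68. The higher calls near 2-fold therefore depend on the scaling, and those of Epha5, Sema6b and Ephb1 do not.

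Ephb1 was higher at P24-30 (205 against 74 UMIs; 3.25, 2.48 to 4.30) through 1 cell of tag G10, which held 158 of the 205 UMIs in a total of 683. Without it Ephb1 had 47 UMIs (3.88 CPM) and a ratio of 0.749 (0.508 to 1.09), and within neuron-like cells it was lower (0.332, 0.164 to 0.640). Plxnb1 had 358 UMIs at P24-30 against 197 at P12 (2.13, 1.79 to 2.55), and 293 UMIs (1.75, 1.46 to 2.11) without 2 cells of G10 that held 46 and 19. Such cells existed for 592 of 16546 genes at P24-30 and for 94 at P12; what they are was not tested.

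Within cycling cells 3 guidance genes were higher at P24-30, where 10.9% of all genes were, and 5 lower, where 4.06% of all genes were; Unc5b (3 against 29 UMIs; 0.143, 0.0278 to 0.461), Slit1 (0.307) and Sema4b (0.477) joined Epha3 and Plxna2 among the lower. Within neuron-like cells 9 were higher, where 10.8% of all genes were, and 6 lower, where 5.71% of all genes were. Sema7a was higher there at 95.3 against 33.9 CPM (3.06, 2.06 to 4.66), as were Sema4b (4.80), Ephb6 (3.16), Ntn1 (2.35) and Plxnb1 (2.17). Ephb4 had 10 UMIs against 0, which is at least 2.53-fold higher against a floor of 3 UMIs, and Plxnd1 had 8 against 0, at least 2.02-fold. Efnb2 (0.207), Nrp2 (0.316) and Sema4c (0.438) were lower.

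The neuron-like cells compared here were not chosen alike: those of P12 are 1 cluster, whereas G11, G12 and G13 held 47, 94 and 207 cells of that library's own neuron-like cluster beside 36, 83 and 237 of its unnamed clusters. These tags also held 23, 19 and 37 cells of clusters set apart for low depth, and 10, 2 and 2 of cycling clusters. The neuron list stood at 19071 CPM in the P12 class and at 11001 CPM in the tags, and Sema7a stood at 96.1 and 126 CPM in the unnamed clusters of P12. With the neuron-like clusters of both libraries in place of the tags, 5 guidance genes were higher, where 9.3% of all genes were, and 6 lower, where 4.37% of all genes were. Sema7a then had 63.3 CPM at P24-30 and a ratio of 2.12 (1.36 to 3.36), and Epha5, Ephb6, Plxna3 and Sema4b were the others higher. Robo2, at 37.8 CPM, was lower (0.292, 0.197 to 0.422), as were Efnb2, Ephb1, Plxna2, Unc5b and Unc5c. Sema3e (1.70), Ntn1 (1.86) and Plxnb1 (1.83) no longer passed, and Ephb4 and Plxnd1 had 1 and 3 UMIs. Sema6a stood at 260 CPM at P24-30 in that comparison, against 177 CPM in the tags.
The markers of other cells moved between the libraries too: in CPM at P12 and then at P24-30, the endothelial list (5 and 8 markers listed) stood at 2.1 and 49.98, the microglia list at 592 and 302, the choroid plexus list at 501 and 1901, the erythroid list at 93.4 and 223, the pericyte list at 21.7 and 54.3, and the G2 and M list at 8976 and 4026. The median share of mitochondrial UMIs per cell was 7.51% at P12 and 2.91% at P24-30. Their part in the library ratios was not tested.

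**Figure D5:**
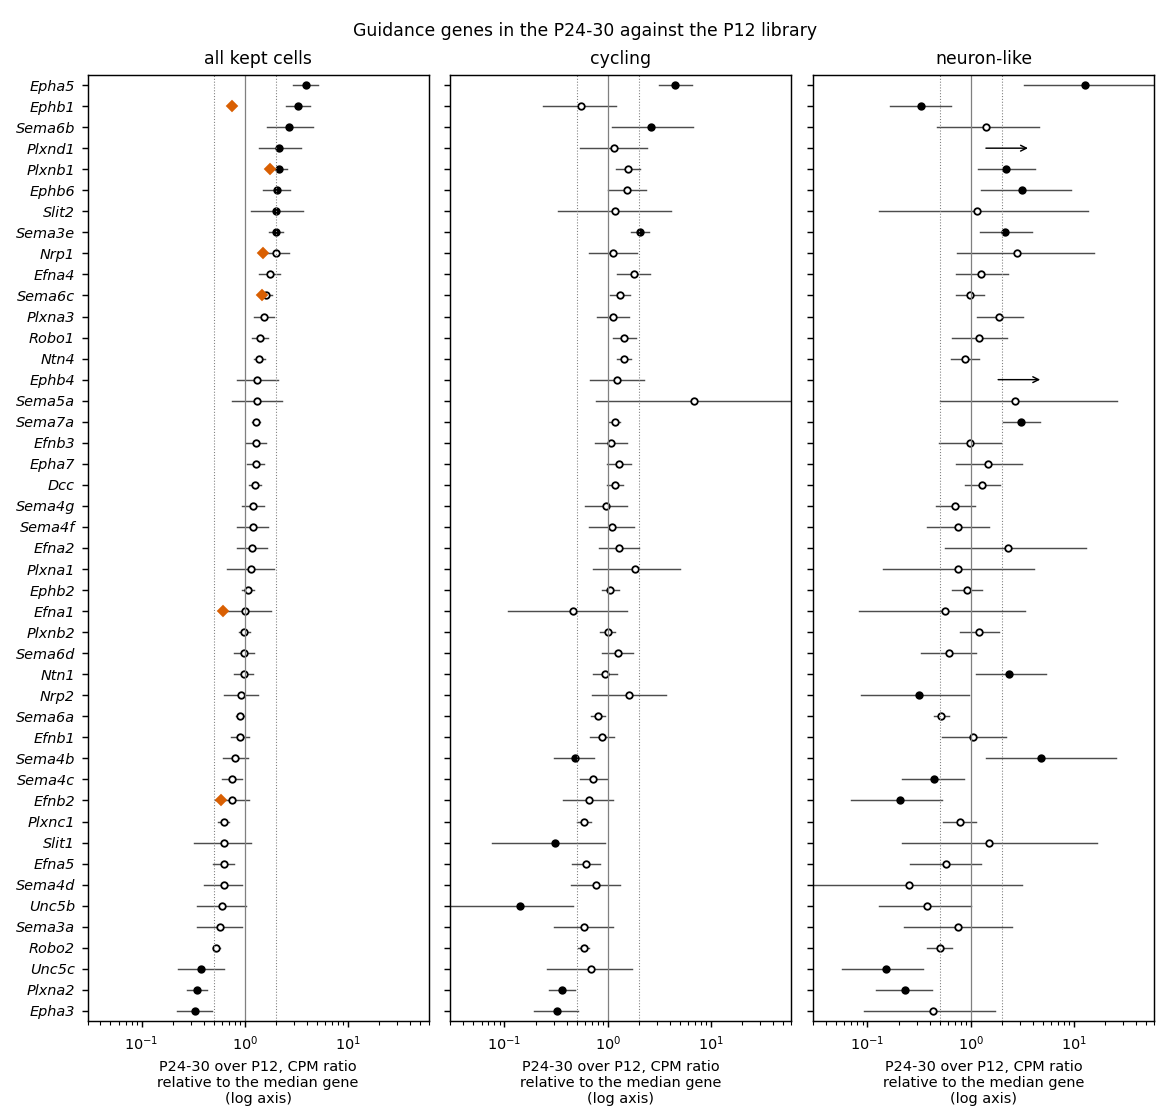
Ratio of each guidance gene at P24-30 over P12, relative to the median gene, over all kept cells, within cycling cells and within neuron-like cells, on log axes with 95% intervals. Filled points are called, arrows mark genes with 0 UMIs at P12, and diamonds show values without cells that hold at least 10 UMIs and 5% of the gene. Epha5 lies above 2 and Plxna2 below 0.5 in all of these, whereas Ephb1 stands at 3.25 over all cells and at 0.332 in neuron-like cells.

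The partners of the ligands and receptors were followed in lists of other pathway genes, read against the shares of all genes given above for each comparison. Unlike the guidance genes, they were not left out of the P12 clustering, so some may have helped to form the classes compared. Of 14 measured adaptors and co-receptors, 3 were higher in neuron-like cells of each library, the same genes in both: L1cam, Dscam and Lrig2. L1cam, an adhesion molecule of growing axons and a co-receptor for semaphorin signals, had 98.4 against 2.96 CPM at P12 (31.9, 20.1 to 52.9) and 43.6 against 1.57 CPM at P24-30 (23.9, 12.5 to 50.5). At P12 4 were lower, Rgma, Rgmb, Draxin and Flrt2, and at P24-30 Rgma alone. Rgma, a ligand of the netrin receptor neogenin, had 1 against 207 UMIs at P12 (0.0382, 0.000962 to 0.215) and 12 against 125 at P24-30 (0.428, 0.216 to 0.775).

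Of 46 measured intracellular effectors, 11 were higher and 4 lower at P12, and 9 higher and 3 lower at P24-30. Dpysl3, a microtubule-binding relay of semaphorin signals, had 427 against 33.2 CPM at P12 (12.3, 10.5 to 14.5) and 143 against 22.7 CPM at P24-30 (5.42, 4.37 to 6.72). It was among the 10 leading genes of the P12 neuron-like cluster, so its P12 ratio is not independent of the class. Srgap3, which acts downstream of Robo receptors, had 46.6 against 3.6 CPM (12.4, 7.56 to 20.7) and 31.8 against 3.72 CPM (7.38, 4.43 to 12.5). Dock1, an activator of Rac used by Dcc, was lower, at 5.29 against 50.9 CPM (0.0997, 0.0322 to 0.235) and 10.3 against 29.4 CPM (0.303, 0.163 to 0.520). The median log2 ratio was 0.46 and 0.27 for the effectors and 0.07 and 0.18 for the adaptors, beside 0.51 and 0.58 for the guidance genes. In the oligodendrocyte-lineage-like cells of P12, 3 adaptors were higher and 3 lower, and 8 effectors higher and 4 lower. Between the libraries 2 adaptors were higher and 2 lower, and 3 effectors higher and 1 lower.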

How the data were processed

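Drop-seq libraries of medulloblastoma cells, 1 per age, were used. For P12 the authors deposited whole-number counts per gene and cell, taken here as UMI counts; the sources used here do not say how molecules were collapsed. For P24-30 the authors deposited natural log values, ln(1 + 10000 × share of a cell's UMIs), from which UMI counts were recovered; 100% of 6195642 values came out whole within 0.001. The build was mm10 and CASAVA was named, per the submitters' processing notes; for the aligner and the counting strand, not given in the sources used here. Efna4, Ephb1, Ephb4, Plxna1, Plxnb1, Sema4c and Unc5c overlap exons of a gene on the other strand, and Nrp1 and Plxnc1 one on the same strand, so their counts may be shared. The P24-30 columns carry no barcodes, so barcodes shared between libraries could not be counted.

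The files were joined on 16055 identical names and 491 synonyms. Cells under 500 UMIs or over 20% mitochondrial UMIs were left out, which kept 5723 of 6000 at P12 (11873881 UMIs) and 4796 of 4991 at P24-30 (12124327 UMIs). P12 cells were clustered with scanpy 1.11.5 (2000 variable genes, 30 components, 15 neighbours, Leiden resolution 1) without the guidance genes, and P24-30 cells outside the tumour lineage were found the same way. A class was named from the mean log2 ratio of its marker list to the remaining cells of its library, with thresholds set after the clusters were seen. For the tags, cells outside the tumour lineage were taken out first. Classes outside the tumour lineage, which needed at least 3 markers raised 2-fold, were read first, then low depth, then cycling, then neuron-like. No doublet caller was run.

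UMIs were summed per class and scaled to CPM. Each level has an exact Poisson interval and each ratio an exact conditional 95% interval, relative to the median gene of 12227; zeros use a floor of 3 UMIs. Intervals, shares and floors cover counting error only, and PCR or free RNA is not covered. The ratio script was tested on simulated data. With 1 library per age no test was made. The genes named are those past 2-fold with an interval on 1 side of 1 and the most abundant remaining genes of each family. The members and the marker and pathway lists were chosen with earlier results of these data known. Alternatives were the plain ratio, UMI minimums of 20 and 100, mean per-cell CPM, no cell filter, Leiden resolutions 0.5 and 2, guidance genes kept in the clustering, and, chosen after seeing the data, other class definitions and the removal of cells that hold much of a gene's UMIs.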

Additional observations from a re-analysis of the deposited data

Results flagged for a closer look

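Sema4b had opposite neuron-like over cycling ratios in the 2 libraries, 0.282 (0.0570 to 0.853) at P12 and 2.92 (1.55 to 5.39) at P24-30; the difference between the libraries was not tested, and the P12 value rests on 3 UMIs.

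Some genes whose names match the guidance families were listed for 1 library and so were outside every comparison. Plxna4os1, an antisense transcript, had 10 UMIs at P12. Epha1 had 8 UMIs, Robo4 had 10 and Unc5cl had 4 at P24-30. No control library was used, so these counts have no background to be read against.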

How the results depend on the processing

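No paired analysis was possible because each age has 1 library. Of the genes called in each ratio, 12 to 17 of 17 kept their call over the alternatives for neuron-like over cycling cells at P12, 9 to 13 of up to 13 did so at P24-30, 9 to 13 of up to 13 did so for glial over cycling cells, and 4 to 10 of up to 11 did so between the libraries. The count of genes higher stayed within 1.5 times of the reported one in all 3 class ratios. The lower counts moved more: 0 in place of 2 at P12 with Leiden resolution 0.5, 1 in place of 0 at P24-30 with that library's clusters in place of tags (Efnb1, 0.481), and 5 in place of 3 for glial cells both at a minimum of 20 UMIs and with guidance genes kept in the clustering. Between the libraries, the genes higher were 3 with the plain ratio, 14 at a minimum of 20 UMIs 3 in cycling cells alone and 5 in the neuron-like clusters of both libraries, in place of 8; the genes lower were 5 with the plain ratio, 5 in cycling cells, 6 in neuron-like cells, 6 in the neuron-like clusters and 5 without glial, immune and vascular cells, in place of 3. Ephb1 turned to 0.552 in cycling cells, 0.332 in neuron-like cells, 0.411 in the neuron-like clusters and 0.749 without the cells that hold at least 10 UMIs and 5% of a gene, since 1 cell carried most of its UMIs. The cause of the other moves was not tested. Depth limits the glial class most, where 11 genes at P12 and 14 at P24-30 had 0 UMIs.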

Other observations

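Guidance genes were also measured in immune and vascular cells. These cells were part of the library ratios over all kept cells, but not of the neuron-like, glial and cycling classes. Microglia-like cells also served as background for the Sema6a and Sema7a shares. Microglia-like cells (81 at P12, 54 at P24-30) carried Nrp1 at 152 CPM (104 to 216) and 206 CPM (137 to 298), Nrp2 at 133 CPM (87.4 to 193) and 51.5 CPM (20.7 to 106), Plxnb2 at 108 CPM (67.7 to 164) and 147 CPM (89.9 to 227), and Sema4d, an immune semaphorin, at 83.5 CPM (48.7 to 134) and 44.2 CPM (16.2 to 96.1). Sema6a had 2 UMIs in them at P12 and 0 at P24-30.

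The 10 endothelial-like cells of P24-30 held 48 UMIs of Nrp1, the co-receptor of vascular endothelial growth factor, at 956 CPM (705 to 1268). They also held Sema6a at 279 CPM (153 to 468), Efna1 at 259 CPM (138 to 443), Efnb2, a marker of arteries, at 219 CPM (109 to 392), Sema7a at 199 CPM (95.5 to 366), and Plxnd1, a receptor known from vessels, at 159 CPM (68.8 to 314). A mixed class of astrocyte and choroid plexus cells held Slit2 at 36.4 CPM (9.91 to 93.1) at P12 and 48.7 CPM (26.6 to 81.7) at P24-30. These levels have no replicate check.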
